A study of Mus musculus with 4 samples.

Results

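Ins1, Ins2 and Iapp encode the peptide hormones insulin and amylin. They were chosen by name, as every probe whose transcript accession belongs to 1 of these genes, and are 3 of the 45616 genes and unnamed transcripts on the array. Each had 1 probe, spotted once: A_55_P1959318 for Ins1 (transcript NM_008386), A_51_P389597 for Ins2 (NM_008387) and A_66_P114856 for Iapp (NM_010491). RNA of isolated pancreatic islets was measured on 4 arrays of a single colour. The control group was 2 samples of genotype Pdx1-Cre, titled wild type although they carry the Cre transgene, and the Rb-deficient group was 2 samples of genotype Pdx1-Cre:Rbf/f. All 4 samples thus carry Pdx1-Cre, and the groups differ in the floxed alleles of the retinoblastoma gene. The labels give no age, no sex and no number of mice per sample, so p-values measure only the spread between these samples, which may be technical.

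Beta cells make insulin as preproinsulin, which loses its signal peptide on entry into the endoplasmic reticulum, folds there and is cut to insulin and C-peptide in the secretory granule. The mouse has a pair of insulin genes. Ins2 has the gene structure shared with other mammals, and Ins1 arose from it as a copy inserted elsewhere through an RNA intermediate. Amylin, the product of Iapp, is stored and released with insulin and acts on calcitonin receptors joined to RAMP proteins. The Pdx1 promoter is active in the pancreatic progenitors that give rise to endocrine, acinar and duct cells, so that a Pdx1-driven Cre can act in islet and exocrine cells alike.

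The start regions of Ins1 and Iapp are shown because these genes are targets of the same beta cell transcription factors, whose values follow below. They are RefSeq sequences of the GRCm38.p6 build, from 250 bases before to 50 bases after the annotated start, for 2 of the 3 genes. The Ins1 window is chr19:52264047-52264346 and the Iapp window chr6:142298175-142298474, both on the plus strand. Capitals mark matches to 3 motifs, searched on both strands. The first, TAAT (on the other strand ATTA), is the core bound by homeodomain proteins such as Pdx1. The second, CATCTG (on the other strand CAGATG), is an E-box of the kind bound by Neurod1. The third, TATAA (on the other strand TTATA), is the core of the TATA box.
Ins1: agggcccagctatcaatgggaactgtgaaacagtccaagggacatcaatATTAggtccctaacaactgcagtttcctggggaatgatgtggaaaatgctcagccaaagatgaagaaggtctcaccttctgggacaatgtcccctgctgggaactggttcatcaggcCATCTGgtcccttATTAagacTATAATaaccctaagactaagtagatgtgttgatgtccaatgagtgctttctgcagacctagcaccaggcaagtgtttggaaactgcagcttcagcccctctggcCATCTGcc
Iapp: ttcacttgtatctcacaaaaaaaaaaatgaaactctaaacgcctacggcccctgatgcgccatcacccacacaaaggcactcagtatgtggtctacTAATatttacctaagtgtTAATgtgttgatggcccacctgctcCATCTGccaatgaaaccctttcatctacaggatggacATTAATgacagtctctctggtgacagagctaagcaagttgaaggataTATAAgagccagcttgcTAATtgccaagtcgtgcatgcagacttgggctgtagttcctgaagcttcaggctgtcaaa

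The Ins1 window held TAAT 3 times, CATCTG 2 times and TATAA once, the last overlapping a TAAT. The Iapp window held TAAT 5 times, of which 2 overlap, and CATCTG and TATAA once each. Of 32851 such windows in the table, 58.0% held TAAT, 17.2% CATCTG and 24.9% TATAA. These matches describe the letters only.

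The arrays shared 1 slide. Control array 1 stood apart from the others: 76.5% of its probes were well above background, against 59.0% to 59.9% on the other 3. The Y-linked gene Ddx3y was well above background on control array 1 alone, and Xist was not, with log2 values of -7.40 there and -1.35 to -0.65 on the others. These transcripts place a male sample on control array 1 and female samples elsewhere. Sex thus differed within the control group, and the hormone results are also given with each array left out. Rb1, the deleted gene, had log2 values of 0.28 and 0.86 in control and -0.48 and -0.90 in Rb-deficient islets on one probe, and -2.23 and -2.11 against -3.35 and -4.10 on the other. Nothing here tells whether those probes lie in the deleted part.

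The hormone probes were among the brightest on every array. Before any scaling, the processed intensity of Ins2 was 504974 and 507996 units in control and 491628 and 464458 units in Rb-deficient islets. For Ins1 it was 347966 and 345721 against 326613 and 320652 units. For Iapp it was 206022 and 208105 against 194299 and 195985 units. For each of the 3 genes both Rb-deficient values were thus below both control values, and the highest of the 4 values was 1.09 times the lowest for Ins1, 1.09 times for Ins2 and 1.07 times for Iapp. Of all genes tested, 16.7% had both Rb-deficient arrays below both controls in the same unscaled values.

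**Figure D1:**
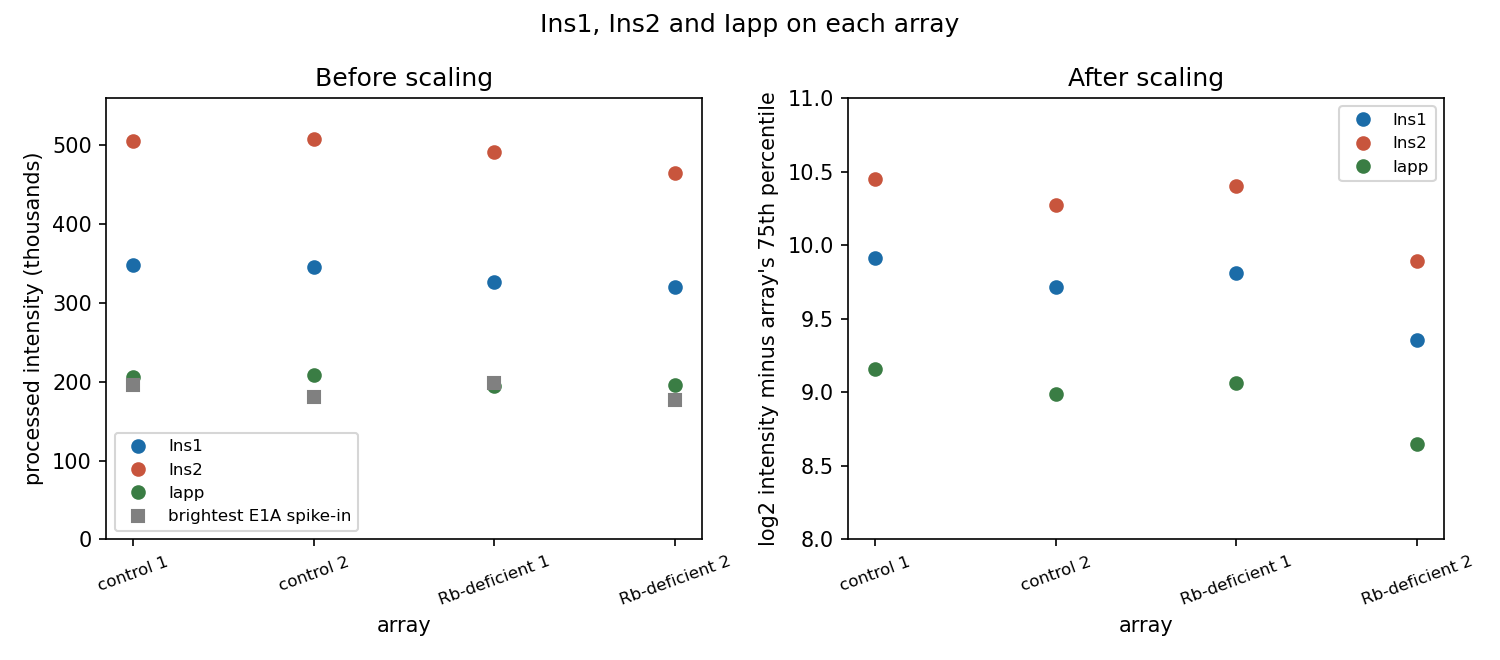
Values of the Ins1, Ins2 and Iapp probes on the 4 arrays, as processed intensity before scaling (left, with the brightest E1A spike-in control as grey squares) and as log2 intensity minus the 75th percentile of the array (right); each point is 1 spot. Before scaling both Rb-deficient arrays lie below both controls for each gene, and after scaling Rb-deficient array 2 alone lies below the other 3.

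In rank among all probes, 1 being the brightest, Ins2 held rank 2 on all 4 arrays. Ins1 held ranks 8 and 7 in control and 4 and 4 in Rb-deficient islets. Iapp held ranks 47 and 42 in control and 36 and 25 in Rb-deficient islets. The ranks of Ins1 and Iapp were thus nearer the top in Rb-deficient islets although their intensities were lower. Probes brighter than Ins1 numbered 7 and 6 on the control arrays and 3 on each Rb-deficient array. Those that left this place were probes of acinar genes: the amylase gene Amy2a5, the lipase gene Cel, the zymogen granule gene Sycn and, on control array 1, the elastase gene Cela3b. A rank here is of the brightness of a probe and does not compare numbers of transcripts between genes.

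No spot of the 3 genes was marked as saturated, nor was any other spot. Their median pixel brightness was 55.0% to 59.3% of the saturation value for Ins2, 43.0% to 47.3% for Ins1 and 23.8% to 25.4% for Iapp. The brightest E1A spike-in, a control RNA of fixed amount added to each sample, had a median intensity of 196178 and 181049 units in control and 198519 and 176294 units in Rb-deficient samples. Ins2 was 2.48 to 2.81 times as bright as this spike-in and Ins1 1.65 to 1.91 times, so both lay above the range that the spike-ins cover, while Iapp was at 0.979 to 1.15 times. Whether brightness still follows RNA amount in proportion above that range was not tested. The scanner software gives an error of 10% for each of these spots, while the 300 probes with replicate spots on an array had a median coefficient of variation of 2.94%.

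The intensities were next scaled to the 75th percentile of each array. This percentile was 361 and 411 units in control and 364 and 488 units in Rb-deficient samples. On this scale Ins1 had log2 values of 9.91 and 9.72 in control and 9.81 and 9.36 in Rb-deficient islets. Ins2 had 10.45 and 10.27 against 10.40 and 9.89. Iapp had 9.16 and 8.99 against 9.06 and 8.65. In all 3 genes Rb-deficient array 1 lay between the controls and array 2 below all others, so that the groups overlapped. On this scale 20.7% of all genes had both Rb-deficient arrays below both controls, and 4032 of 26378 had both above.

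None of the 3 genes passed the test. Ins1 was 1.17-fold lower in mean in Rb-deficient islets, with log2 means of 9.82 ± 0.14 and 9.58 ± 0.32 (SD, n = 2 each). Its difference, -0.23, had a standard error of 0.25 and a 95% interval from -0.93 to 0.47 (limma, Benjamini-Hochberg adjusted p 0.868). For Ins2 the means were 10.36 ± 0.13 and 10.15 ± 0.36 (SD, n = 2 each), a difference of -0.22 with a standard error of 0.26 and an interval from -0.95 to 0.52 (limma, adjusted p 0.872). For Iapp they were 9.07 ± 0.12 and 8.85 ± 0.29 (SD, n = 2 each), a difference of -0.22 with a standard error of 0.24 and an interval from -0.88 to 0.45 (limma, adjusted p 0.868). The intervals reach from 1.93-fold lower at one end, in Ins2, to 1.43-fold higher at the other, also in Ins2, and differences within them are not shown to be absent.

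Among all 26378 genes limma called 0 after adjustment, which is 0% of those tested, and 1493 genes or 5.66% had an unadjusted p under 0.05. None of the 3 hormone genes was among these, with unadjusted p values of 0.403 for Ins1, 0.453 for Ins2 and 0.409 for Iapp in limma. The median difference of all genes was -0.07, and the hormone genes lay 0.16, 0.15 and 0.15 below it. Of all genes, 36.0% had a difference below that of Ins1, 37.0% below that of Ins2 and 36.9% below that of Iapp, so the 3 lay well inside the spread of the array. No change of hormone RNA is thus shown. In bulk RNA of whole islets, a change in beta cell number and one in hormone RNA per beta cell could not be told apart.

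The size and the sign of these differences depended on the scaling. Without scaling they were -0.10 for Ins1, -0.08 for Ins2 and -0.09 for Iapp, the mean intensities being 6.69%, 5.62% and 5.76% below control. Scaled to 6 E1A spike-ins they were -0.12, -0.11 and -0.11. Scaled to 10 reference genes they were -0.38, -0.36 and -0.37. Scaling to the array median turned them to 0.21, 0.22 and 0.22. Quantile normalization gave 0.15 for Ins1 and 0.24 for Iapp, and 0 for Ins2, which held the same rank on every array and so received the same value on each. With it both Rb-deficient arrays lay above both controls for Ins1 and Iapp, as for 5125 of 26378 among all genes. None of the 3 genes was called by limma in any of these settings. The spike-in scaling and the values without scaling were added after the data had been seen.

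**Figure D2:**
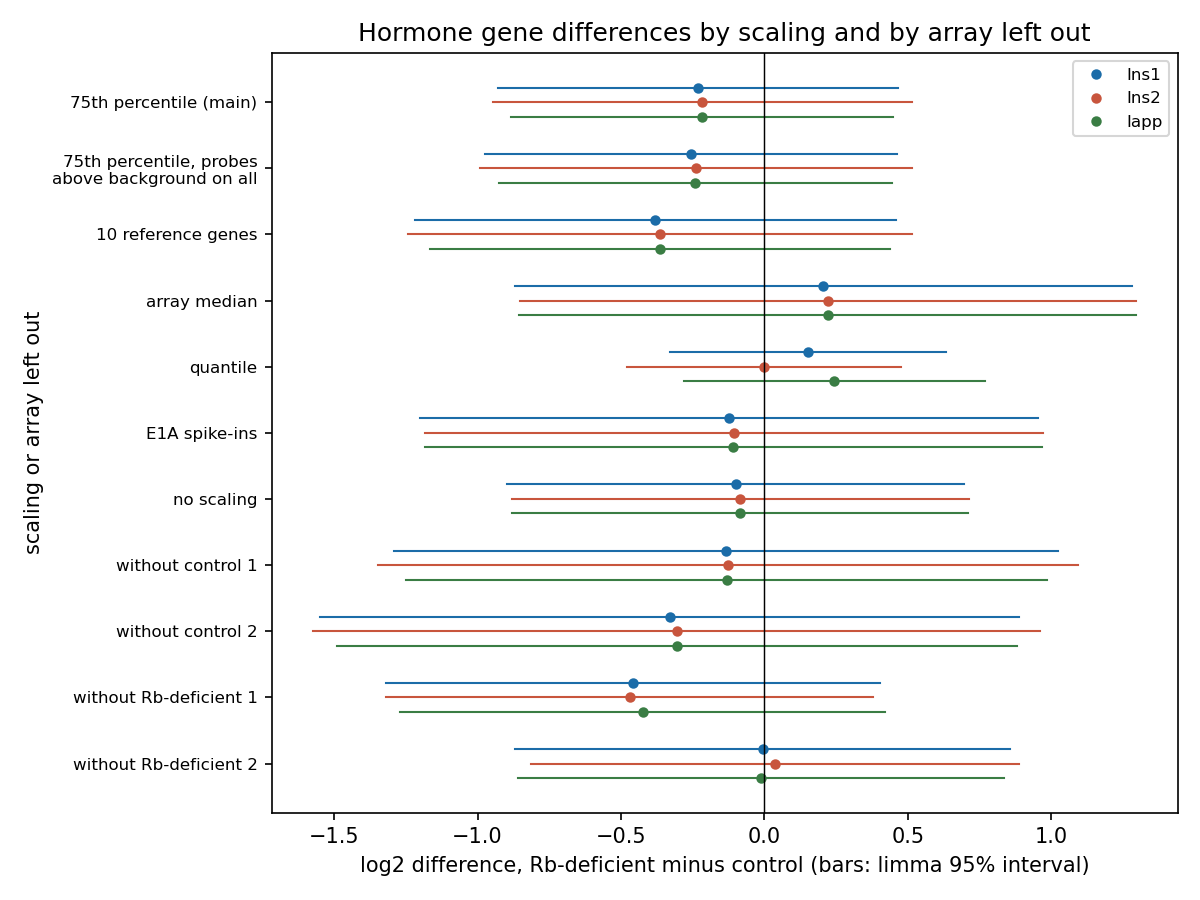
Log2 difference of Ins1, Ins2 and Iapp between Rb-deficient and control islets (points) with limma's 95% interval (bars), for each scaling between arrays and with each array left out in turn. Every interval crosses 0, and the points run from -0.47 for Ins2 without Rb-deficient array 1 to 0.24 for Iapp with quantile normalization.

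A single array decided the scaled difference. Without Rb-deficient array 2 it was -0.01 for Ins1, 0.04 for Ins2 and -0.01 for Iapp. Without Rb-deficient array 1 it was -0.46, -0.47 and -0.42. Without control array 1 it was -0.13, -0.13 and -0.13, and without control array 2 -0.33, -0.31 and -0.30. The 75th percentile itself was highest on Rb-deficient array 2. Before scaling, Rb-deficient arrays 1 and 2 differed from the control mean by -0.09 and -0.11 for Ins1 on the log2 scale. For Ins2 these unscaled differences were -0.04 and -0.12, and for Iapp -0.09 and -0.08.

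The 3 genes kept nearly fixed proportions to each other, a comparison that needs no scaling. Ins1 minus Ins2 within an array was, on the log2 scale, -0.54 and -0.56 in control and -0.59 and -0.53 in Rb-deficient islets. Iapp minus Ins2 was -1.29 and -1.29 against -1.34 and -1.24. Iapp minus Ins1 was -0.76 and -0.73 against -0.75 and -0.71. Only the change between arrays can be read, since the levels belong to different probes. The group means differed by -0.02, -0.0016 and 0.01, less than the spread between the Rb-deficient arrays in each pair, whose SDs were 0.04, 0.07 and 0.03 (n = 2). The Ins1 and Ins2 probes lay above the range of the spike-ins, where the proportion of brightness to RNA amount was not tested. Fixed proportions of brightness therefore do not show fixed proportions of RNA. The probe sequences were not used here, and hybridisation of RNA of one insulin gene to the probe of the other was not tested.

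**Figure D3:**
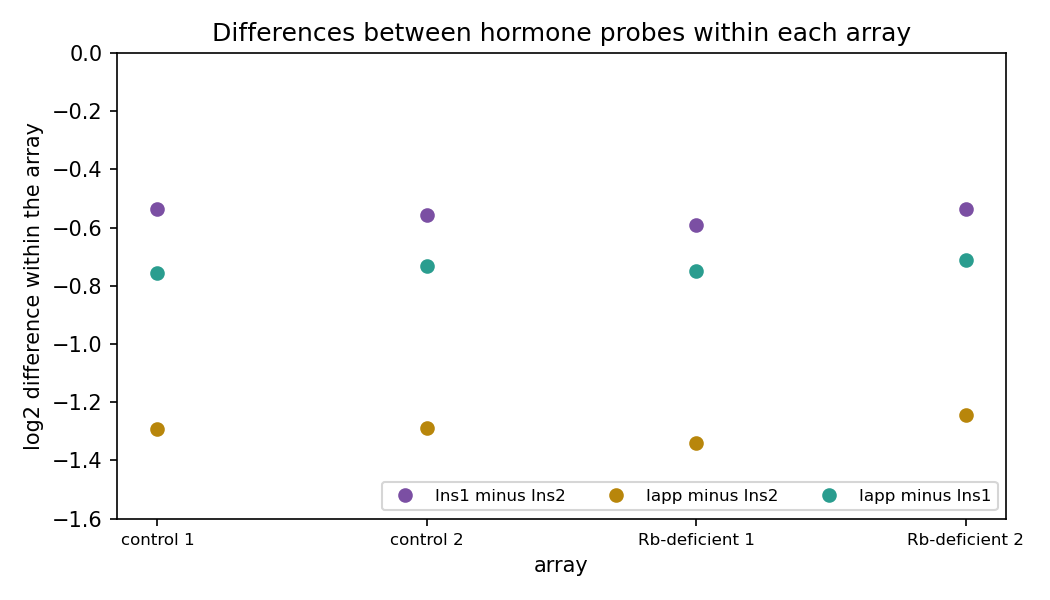
Log2 differences between the probes of Ins1, Ins2 and Iapp within each of the 4 arrays; each point is 1 array. Over the 4 arrays Ins1 minus Ins2 spans 0.06, Iapp minus Ins2 0.09 and Iapp minus Ins1 0.05.

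Probes of like brightness put the hormone genes in context. Of the 100 brightest probes, 82 were lower in unscaled mean in Rb-deficient islets, with a median difference of -0.15, and the 3 hormone probes were closer to 0 than this median. Of the list of acinar markers, 12 probes were among the 100, all lower, with a median unscaled difference of -0.73. Acinar genes outside that list were also among the 100, and one of the Amy2a5 probes differed by -0.04 and the other by -0.71. Endocrine probes among the 100, picked after their values were seen, differed on both sides of the hormone genes. Chga, a granin of the secretory granule, had an unscaled difference of -0.07 and Sst, the hormone of delta cells, -0.09. Scg2 stood at -0.27 and Gcg, which encodes glucagon, at -0.65. Cpe stood at 0.19, Pcsk2 at 0.23 and Chgb at 0.68.

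**Figure D4:**
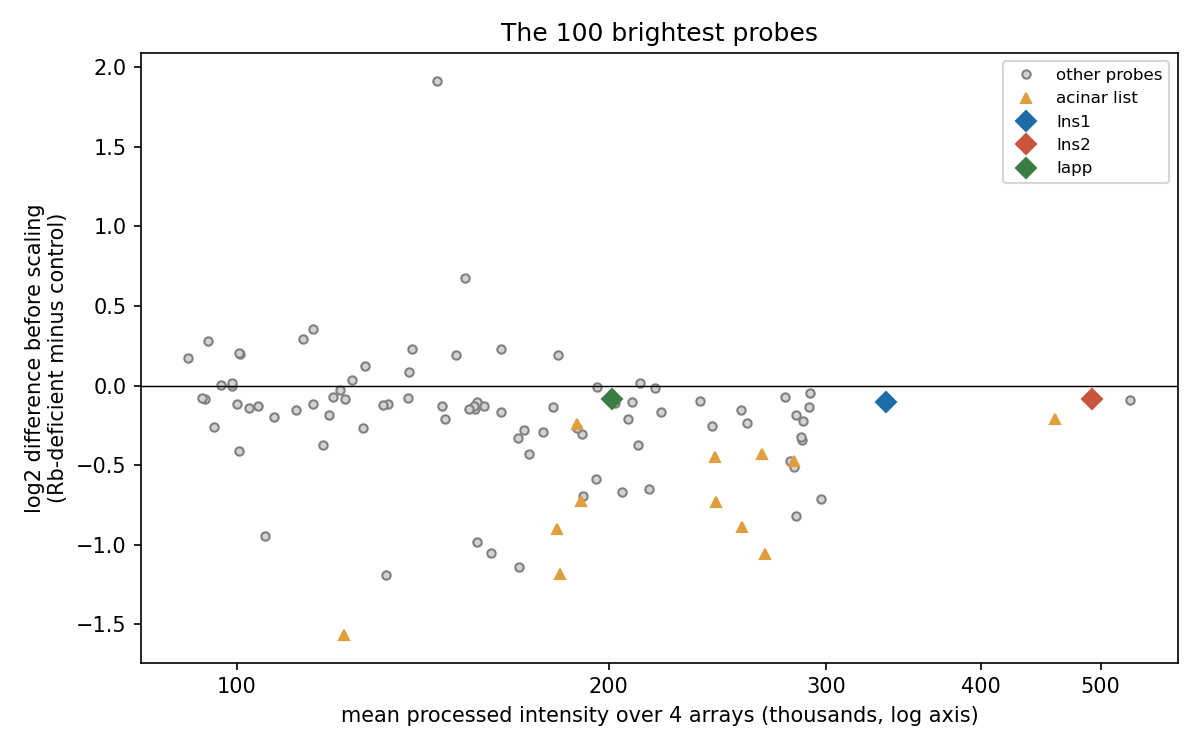
Mean processed intensity over the 4 arrays (horizontal, log axis) and log2 difference before scaling, Rb-deficient minus control (vertical), for the 100 brightest probes; diamonds are Ins1, Ins2 and Iapp, triangles the acinar list and circles all others. The 3 hormone probes lie between -0.10 and -0.08, and the 12 probes of the acinar list lie below them; acinar genes outside that list are among the circles.

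Genes measured on all 4 arrays were searched for profiles most like the mean profile of the 3 hormone genes, by the root mean square distance of log2 values centred on each gene. Among the nearest of 14999 were Ppp4r1, Btbd16, Map11 and Fbxl12os, at distances of 0.01 to 0.02 over 4 arrays. Ppp4r1 encodes a regulatory subunit of protein phosphatase 4. Ins1 itself lay at 0.0073, Ins2 at 0.0180 and Iapp at 0.0163, and 3 of the other genes were nearer to the mean profile than Ins2 and Iapp were. Over 4 arrays such likeness is a description only.

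Transcription factors that act on the insulin genes were next examined from a list of 21, of which 20 were measured. In mean, 14 were higher and 6 lower in Rb-deficient islets, with a median log2 difference of 0.12 beside -0.07 for all genes, and limma called 0. With the probes of a gene averaged, in place of the brightest probe, 10 were higher and 10 lower, with a median of -0.0024. Pdx1, Mafa and Neurod1 were picked for their known roles, after their values had been seen. Pdx1, which binds the TAAT elements of the insulin promoter, had log2 values of 0.44 and 1.26 in control and 1.04 and 1.45 in Rb-deficient islets. Mafa, the factor of mature beta cells that binds the C1 element, had 2.21 and 2.32 against 2.36 and 2.38. Neurod1, which binds the E-box, had 3.67 and 3.81 against 4.02 and 3.80. Mafa was above control on both Rb-deficient arrays, by 0.11 in mean, while Pdx1 and Neurod1 overlapped.

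Among the factors with the smallest p, Insm1, a zinc finger factor of endocrine cells, was 1.32-fold higher in mean, with 4.99 and 5.23 against 5.49 and 5.53 (limma, adjusted p 0.863). Pax6, a paired homeodomain factor of islet cells, was 1.26-fold higher with 3.09 and 3.45 against 3.56 and 3.64. Both lay above both controls, and neither was called. Of the 20 factors, 4 lay above both controls and 1 below both, beside 4032 and 5470 of 26378 among all genes. The array median adds 0.44 to every difference and the reference genes take 0.15 off it, so signs of differences between -0.44 and 0.15 depend on the scaling.

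**Figure D5:**
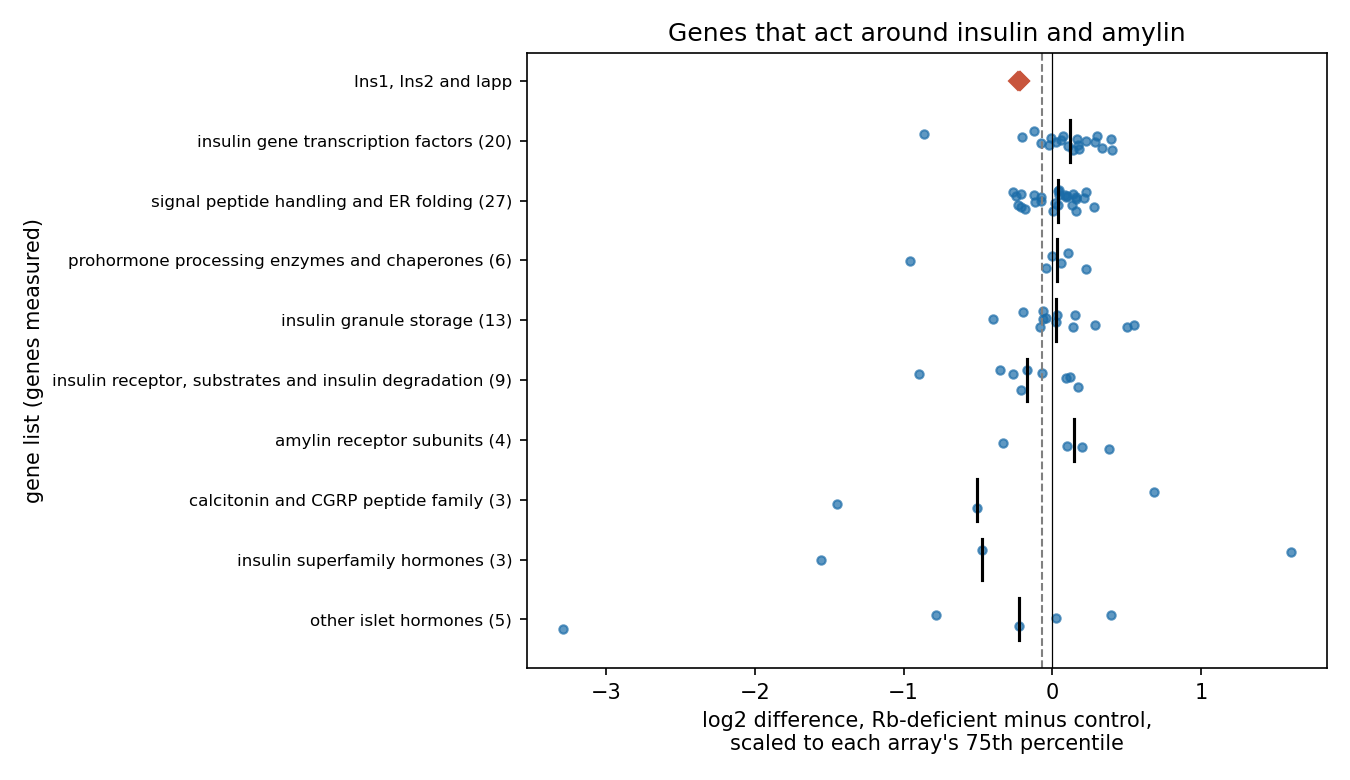
Log2 difference of each measured gene, Rb-deficient minus control, scaled to the 75th percentile, for Ins1, Ins2 and Iapp (diamonds) and 9 lists of genes that act around them (points), with the median of each list (black bar) and of all genes (dashed line, -0.07). The transcription factor, folding, processing and storage lists have medians from 0.03 to 0.12, and the widest spread is among the other islet hormones.

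Genes that take the preprohormones into the endoplasmic reticulum and fold them had small differences. All 27 genes of the list were measured, 17 higher and 10 lower in mean, with differences from -0.27 to 0.28, a median of 0.04 and 0 called. Spcs3, a subunit of the signal peptidase, had 3.55 and 3.34 in control and 3.83 and 3.62 in Rb-deficient islets. Sec61b, of the translocation channel, had 6.81 and 6.70 against 7.06 and 6.89. Both lay above both controls, the only 2 of the 27 to do so, beside 4032 of 26378 among all genes. Prdx4, a peroxiredoxin of the endoplasmic reticulum, had 3.54 and 3.15 against 2.92 and 3.24, and overlapped.

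All 6 genes of the list of prohormone processing enzymes and chaperones were measured, 3 higher and 3 lower, with a median of 0.03 and 0 called. The list includes Scg5 and Pcsk1n, which are not processing enzymes and differed by -0.04 and -0.0032. Pcsk1 and Pcsk2 encode the prohormone convertases that cut both precursors. Pcsk1 had 4.98 and 4.49 in control and 5.37 and 4.54 in Rb-deficient islets, and Pcsk2 had 8.67 and 8.55 against 8.86 and 8.56. Cpe, the carboxypeptidase that trims the cut ends, had 8.84 and 8.73 against 8.94 and 8.75. The groups overlapped for these 3 enzymes. Pam, which amidates peptides such as amylin at their C-terminus, was 1.94-fold lower, with 1.83 and 2.85 against 1.37 and 1.41 (limma, adjusted p 0.863). Its other probe differed by -0.21 only, with 1.52 and 1.05 against 1.20 and 0.96, so the probes of Pam disagreed in size.

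Of 13 genes of granule storage, 7 were higher and 6 lower, with a median of 0.03 and 0 called. Chgb, a granin, was 1.46-fold higher in mean, with 8.23 and 8.28 in control and 9.05 and 8.55 in Rb-deficient islets. Ptprn, a granule membrane protein and islet autoantigen, was 1.42-fold higher with 2.59 and 2.31 against 3.05 and 2.86. Slc30a8, the transporter that loads granules with the zinc of insulin crystals, was 1.22-fold higher with 6.20 and 6.41 against 6.55 and 6.63. Scg2, another granin, was 1.32-fold lower with 9.19 and 8.93 against 8.79 and 8.54. The groups of these 4 genes did not overlap, and limma's adjusted p was 0.863 for each. Of the 13 genes, 4 lay above both controls and 2 below both, beside 4032 and 5470 of 26378 among all genes.

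Receptors for the hormones were measured in the same islets. For insulin, 9 genes of receptors, substrates and degradation were measured, 3 higher and 6 lower, with a median of -0.17 and 0 called. Insr, the insulin receptor, named for its role after its values had been seen, had -2.92 and -2.90 in control and -2.97 and -2.99 in Rb-deficient islets. The other Insr probe had -3.14 and -4.36 against -4.29 and -4.84, so its probes differed in size. Ide, the insulin-degrading enzyme, had -0.52 and -0.49 against -0.71 and -0.82 and lay below both controls. Its other probe overlapped, with -3.06 and -3.85 against -3.71 and -4.38. Among all genes, 5470 of 26378 lay below both controls. Grb10, an adaptor that restrains the receptor, was 1.87-fold lower in mean with -1.20 and -1.98 against -1.95 and -3.03, and overlapped.

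For amylin, 4 of 5 genes of a receptor list were measured, 3 higher and 1 lower, with a median of 0.15 and 0 called. The list includes Calcrl, which is not a subunit of amylin receptors and was higher by 0.10 in mean. Calcr, the calcitonin receptor on which amylin receptors are built, was not well above background on both arrays of either group and was not tested. Its RAMP partners were. Ramp1 had 0.03 and 0.03 in control and -0.54 and -0.06 in Rb-deficient islets. Ramp2 had 2.33 and 2.47 against 2.49 and 3.06. Ramp3 had 1.26 and 1.16 against 1.38 and 1.44. On these probes Ramp1 lay below both controls and Ramp2 and Ramp3 above both, beside 5470 below and 4032 above of 26378 among all genes. Of the other Ramp1 probes, one overlapped, with -2.47 and -3.42 against -3.04 and -3.11, and the other differed by -0.29.

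Mean differences of hormone relatives were larger in size than those of Ins1, Ins2 and Iapp, though limma called none. Of the insulin superfamily 3 of 7 genes were measured. Igf2, a growth factor of the fetal pancreas, was 3.04-fold higher in mean, with -2.18 and -2.50 in control and -1.19 and -0.29 in Rb-deficient islets (limma, adjusted p 0.729). Its second probe was higher by 1.16 on the log2 scale, with -4.49 and -4.41 against -3.56 and -3.02. Igf1, a growth factor structurally close to proinsulin, was 2.94-fold lower with 1.24 and 1.06 against 0.03 and -0.85 (limma, adjusted p 0.717). Neither overlapped between groups, and both lay farther from control on Rb-deficient array 2. Among all genes, 4032 of 26378 lay above both controls and 5470 below both. Insl6 had -1.69 and -2.08 against -2.58 and -2.13.

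Of the calcitonin and CGRP family to which Iapp belongs, 3 of 4 genes were measured. Calca, the gene of calcitonin and CGRP, was 1.61-fold higher in mean, with -1.48 and -1.39 in control and -1.31 and -0.19 in Rb-deficient islets, a difference that came mostly from array 2. Adm2, which encodes a peptide also called intermedin, was 2.73-fold lower with -0.81 and -1.24 against -1.75 and -3.18. Adm, the gene of adrenomedullin, had -4.10 and -4.83 against -4.77 and -5.18. Calca lay above both controls, Adm2 below both, and Adm overlapped, beside 4032 above and 5470 below of 26378 among all genes.

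Most other islet hormones spanned a wider range over the 4 arrays than insulin and amylin did. Sst was 1.17-fold lower in mean, as much as Ins1, with 9.37 and 9.26 in control and 9.31 and 8.87 in Rb-deficient islets. Gcg had 9.34 and 9.44 against 9.26 and 7.96. Ppy, the hormone of PP cells, had 7.36 and 8.17 against 6.30 and 9.28, and Pyy 6.42 and 7.13 against 5.70 and 8.64. Ppy and Pyy were thus lowest on Rb-deficient array 1 and highest on array 2. Ghrl, which encodes ghrelin, had -2.12 and 0.92 against -3.46 and -4.31, 9.76-fold lower in mean, and its other probes differed by -3.92 and -5.64, the last of a probe that was not well above background on either Rb-deficient array. Of the 5 hormones, 2 were higher and 3 lower, and limma called 0.

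Markers of the cell types that islet preparations can hold moved as follows. All 17 beta cell markers were measured and above background on every array, 10 higher and 7 lower, with a median of 0.11, and their summed level was 1038 and 1035 times the 75th percentile in control and 1083 and 820 times in Rb-deficient islets. The sum, in which bright probes weigh most, was lowest on Rb-deficient array 2, while the median of the list, as deviation from the control mean, was -0.10 and 0.10 in control and 0.17 and -0.08 in Rb-deficient islets. All 15 acinar markers were lower in mean, 10 of them below both controls (20.7% among all genes), with a median of -0.86 and a summed level of 10203 and 8163 in control against 7174 and 3969 in Rb-deficient islets. All 12 macrophage markers were higher in mean, with a median of 0.71 and sums of 14.2 and 17.2 against 18.7 and 29.9. With the probes of a gene averaged, in place of the brightest, 10 macrophage markers were higher and 2 lower. Of 8 measured alpha cell markers 7 were lower, with a median of -0.77 and sums of 856 and 872 against 746 and 355. Of 7 ductal markers 6 were lower, with a median of -0.62. The medians of delta and PP cell, endothelial and stromal markers were -0.07, 0.18 and -0.08. Over the 17 alternatives the acinar median ran from -1.30 to -0.42 and the macrophage median from 0.37 to 1.21, while that of beta cell markers changed sign, from -0.08 to 0.54. The acinar, macrophage and alpha cell lists differed most on Rb-deficient array 2, the array that decides the scaled hormone differences, and their part in those differences was not tested.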

How the data were processed

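Arrays were read with Agilent Feature Extraction 12.0.3.1 in a single colour, per the file headers. The deposited processed intensity had its background subtracted and was detrended over the slide, without any scaling of arrays to each other, per the file headers. RNA was amplified with a whole transcriptome kit (Pico WTA System), per the labels. Control spots and 64 to 93 outlier spots an array were dropped, the spots of each probe averaged, and the log2 of the 75th percentile of an array's probes, controls excluded, was taken off its log2 intensities. Accessions were named through a RefSeq table of GRCm38.p6, which matched 32994 of 56605 probes. Genes were kept when well above background on both arrays of a group, with the brightest probe of each, and compared with limma 3.58.1 in R 4.3.3 (two-sided, Benjamini-Hochberg, threshold 0.05, no covariates, 2 residual and 1.82 prior degrees of freedom). The script was tested on simulated data. With 2 against 2 arrays an exact permutation test cannot go below 0.333, and the number of arrays limits the precision. The files hold no mean spot signal, so the normexp and unsubtracted alternatives used the median spot signal. The series value table was each array's processed intensity times a constant, 2.44 and 2.15 for control and 2.49 and 1.74 for Rb-deficient arrays. Which statistic set these is not given in the sources used here, and the table served as an alternative. Named genes were the hormone genes, Rb1, at most 4 genes of a list by smallest p (any of a list of up to 7) and the 5 nearest in pattern. Some genes that this rule takes are not reported here. Pdx1, Mafa, Neurod1, Insr and Chga were named outside it, after their values had been seen. Members and lists were chosen with earlier results of these data known.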

Additional observations from a re-analysis of the deposited data

How the results depend on the processing

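Over 17 alternatives, Ins1 was lower in 15 and higher in 2, Iapp likewise, and Ins2 was lower in 14, higher in 2 and 0 in 1, and limma's adjusted p stayed between 0.563 and 1. The array median reversed Ins1, Ins2 and Iapp to 0.21, 0.22 and 0.22 by adding a constant to all genes. Quantile normalization gave 0.15, 0 and 0.24, and leaving out Rb-deficient array 2 gave 0.038 for Ins2. With an array left out, Ins1 ran from -0.46 to -0.01, Ins2 from -0.47 to 0.04 and Iapp from -0.42 to -0.01. The probe fits gave the same differences, since each gene has 1 probe. limma called 480 genes with the array median, 528 with spike-ins, 99 without scaling, and 0 to 4101 with an array left out, the highest without control array 2. Ins1, Ins2 and Iapp were never among them. Of the other islet hormones, 1 was called with the array median and 1 with spike-ins. Of the insulin superfamily, 1 was called with the array median. The replicate number as a block left 0 called and 3160 genes under an unadjusted p of 0.05, against 1493, with adjusted p values in limma of 0.630, 0.663 and 0.642 for Ins1, Ins2 and Iapp. The deviations of same-numbered arrays correlated at 0.284 over probes, which with 2 pairs does not show that the numbers pair the mice.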
